A study of Mus musculus with 19 samples.

Results

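The genes examined here are the 8 listed genes of MHC class II presentation in the table of gene expression in mouse epididymal white adipose tissue (eWAT): H2-Aa, H2-Ab1, H2-Eb1, H2-DMa, H2-DMb1, H2-DMb2, Cd74 and Ciita. They were chosen by name, and all 8 were among the 24237 genes used. RNA was sequenced from eWAT of male C57Bl6/J mice that were 9 to 10 weeks old when allocated to the diets and that ate them for 17 weeks. The diets drew 10% (LFD) or 60% (HFD) of their energy from fat, which was palm oil, and held 0.21% (NormMg) or 0.03% (LowMg) wt/wt magnesium oxide. The study thereby asked what low dietary Mg2+ does on each level of fat, with 4 NormMg-LFD, 5 LowMg-LFD, 5 NormMg-HFD and 5 LowMg-HFD mice and 1 library per mouse.

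MHC class II molecules are pairs of an alpha and a beta chain that display peptides from ingested proteins to CD4+ T cells. The invariant chain, encoded by Cd74, fills and escorts newly made class II molecules, proteases of the endosome trim it away, and the DM molecule, a pair of H2-DMa and a DM beta chain, exchanges its remnant for peptide. Ciita encodes the class II transactivator, which binds no DNA itself and acts through factors seated on the X and Y boxes of class II promoters. In fat tissue class II is known mainly from macrophages, dendritic cells and B cells, and also from adipocytes under inflammation.

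The short promoter stretches that hold both boxes are shown because 4 of the members hold them, apart from any measured level. In GRCm38 (GENCODE M21), H2-DMa spans chr17:34119541-34139101, H2-DMb2 chr17:34143307-34151555, H2-DMb1 chr17:34153072-34160230, H2-Ab1 chr17:34257689-34269419, H2-Aa chr17:34282744-34287823 (minus strand) and H2-Eb1 chr17:34305867-34316674, all in the class II stretch of the MHC. RefSeq promoter windows, of 250 bases before to 50 after the gene's start (GRCm38.p6), were at hand for 5 of the 8 members. RefSeq's start lies within the GENCODE span for H2-DMa, H2-DMb1 and H2-DMb2, as do the printed stretches of H2-DMb1 and H2-DMb2, and positions below are counted from RefSeq's start. Of the 5, 4 hold an X box core followed by a Y box core. These stretches are printed 5′ to 3′ on the strand of the gene, with both cores in capitals:
H2-Aa, chr17:34287855-34287914, minus strand: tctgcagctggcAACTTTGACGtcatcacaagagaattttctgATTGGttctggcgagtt
H2-Eb1, chr17:34305766-34305824, plus strand: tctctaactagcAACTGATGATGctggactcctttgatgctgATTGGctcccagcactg
H2-DMb1, chr17:34153087-34153146, plus strand: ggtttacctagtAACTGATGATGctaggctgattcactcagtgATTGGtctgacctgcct
H2-DMb2, chr17:34145116-34145175, plus strand: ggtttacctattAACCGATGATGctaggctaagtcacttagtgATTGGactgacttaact

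The X core was searched as AACNNTGANG or AACNNNTGANG, in which N is any base. The Y core was searched as ATTGG. Each was searched on both strands, with 10 to 25 bases between them for the pair. These letters were chosen after the members' promoters were seen, so that the match describes the members and no more. The cores run from position -79 to -44 of the start in H2-Aa, from -89 to -55 in H2-Eb1, from -92 to -57 in H2-DMb1 and from -121 to -86 in H2-DMb2. Of 32851 mouse promoter windows, 37.4% hold the Y core, 5.77% hold the X core, and 63 windows, or 0.192%, hold the pair. Both windows of H2-DMa lack the pair, and 1 of them holds the Y core. The stretches of H2-DMb1 and H2-DMb2 share 51 of their 60 bases. H2-Ab1, Ciita and Cd74 are not shown. Ciita (chr16:10480059-10528418) and Cd74 lie outside the MHC.

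Each library held 12986441 to 13027028 reads of 50 bp, of which 86.12% to 90.41% mapped. That the tissue was fat was borne out by adipocyte markers (Adipoq, Plin1, Lep, Cidec, Fabp4, Lipe), whose summed level was 10505 to 18550 FPKM (fragments per kilobase of transcript, scaled to the library's mapped total) over all mice. These markers do not tell the epididymal depot from other fat. The library labelled NormMg-LFD replicate 3 stood apart: the 7 exocrine pancreas markers other than Cela1 were each between 59.7 and 342 FPKM there and at most 1.21 FPKM in the other 18 libraries. The study's methods name pancreatic tissue in a LowMg-HFD sample that was left out. In the 5 LowMg-HFD libraries these markers reached at most 0.43 FPKM. The labels do not name that sample, so all 19 libraries were kept, and the counts of calls among the members, the pathway lists and the macrophage markers are also given without NormMg-LFD replicate 3. The ranges of levels and the ratios between genes include it.

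The conventional chains and the invariant chain were the most abundant members. In FPKM, which is per length, the mean over the NormMg-HFD mice was 1318 for Cd74, 616 for H2-Aa, 468 for H2-Eb1, 417 for H2-Ab1, 79.6 for H2-DMb1, 49.6 for H2-DMa, 7.82 for Ciita and 5.91 for H2-DMb2. Among LowMg-HFD mice the order was the same except that Ciita, at 5.11, lay below H2-DMb2, at 5.70, and those neighbours differed by less than their spread. In both LFD groups H2-DMa lay above H2-DMb1 and H2-DMb2 above Ciita. The chains H2-Eb1, at 468 ± 48.9 (SD, n = 5) in NormMg-HFD mice, and H2-Ab1, at 417 ± 41.0 (SD, n = 5), are neighbours whose ranges overlap in every group. Summed, the 8 members made up 0.246% ± 0.0333 (SD, n = 4) of all FPKM in NormMg-LFD mice, 0.227% ± 0.0499 (SD, n = 5) in LowMg-LFD, 0.558% ± 0.0443 (SD, n = 5) in NormMg-HFD and 0.384% ± 0.0930 (SD, n = 5) in LowMg-HFD mice.

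**Figure D1:**
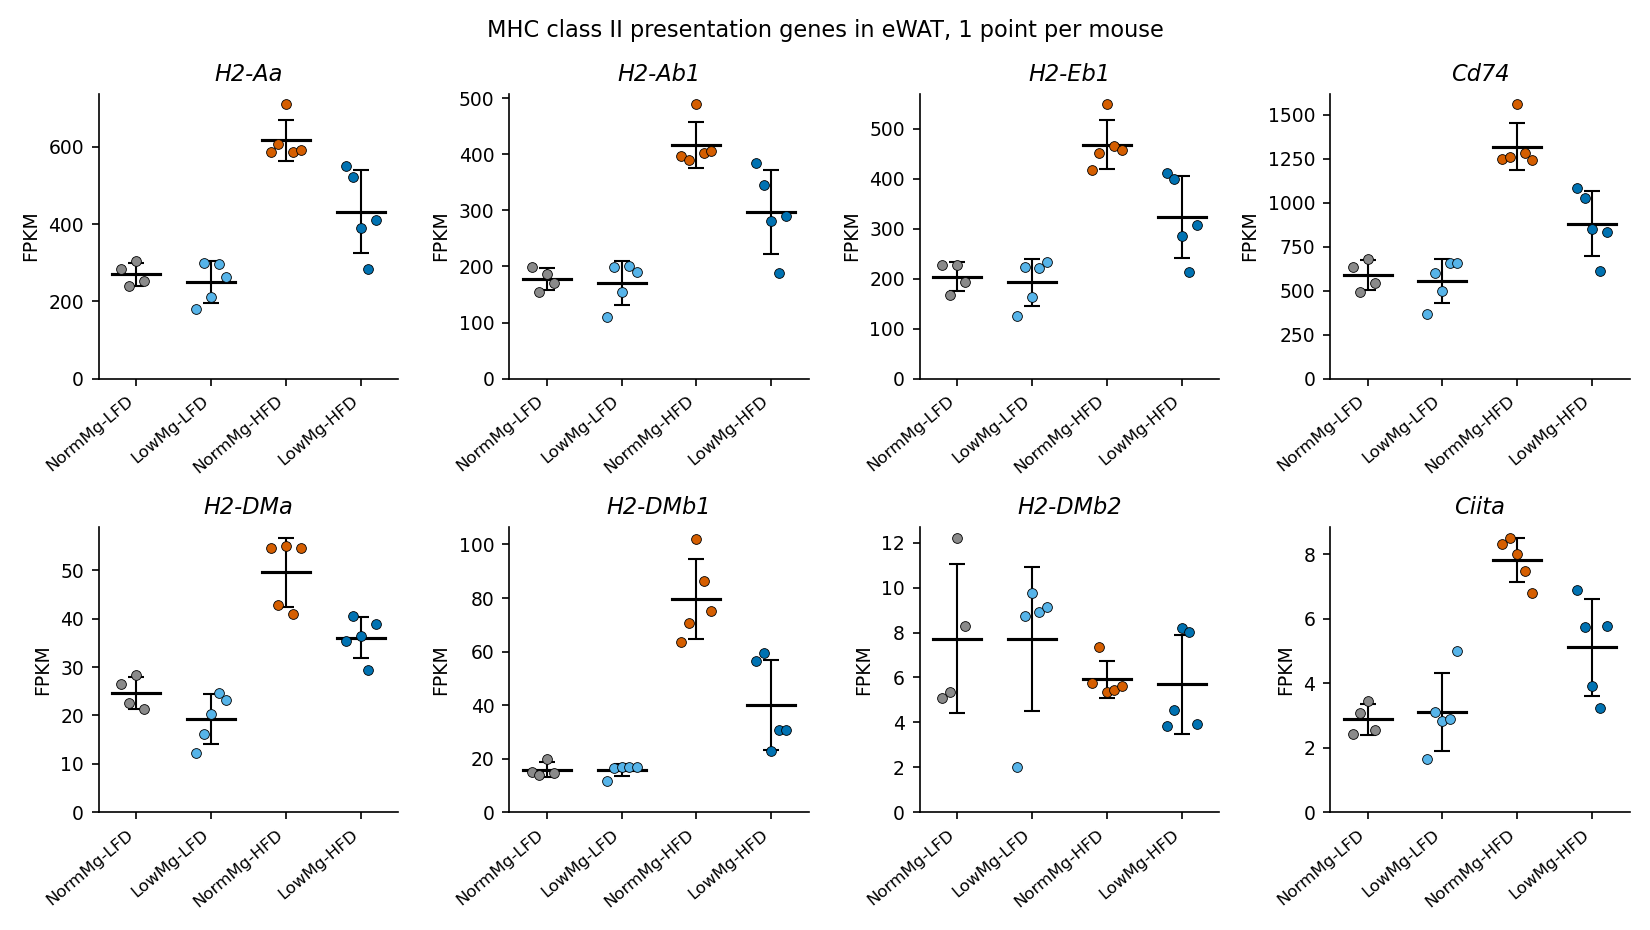
FPKM of the 8 members (vertical axes, linear, each from 0) in the 4 diet groups, with 1 point per mouse, the mean as a wide line and the SD as a bar. In 6 of the 8 panels all NormMg-HFD mice lie above every other mouse; H2-DMb2 shows no such step, and in Ciita the lowest NormMg-HFD mouse, at 6.80, lies just under the highest LowMg-HFD mouse, at 6.90.

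Differences were tested on log2(FPKM + 1) with limma, fitted to the 8336 genes whose mean in any group exceeded 8 FPKM, with 4 or more mice of that group above 8, and adjusted by Benjamini-Hochberg over these genes, with a threshold of 0.05. Of the 8 members, 6 passed this filter in every group, so that none of them entered through a group where it is high. H2-DMb2 and Ciita did not pass it and were read from a fit of all 24237 genes.

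On normal Mg2+, fat raised most of the class II genes. All 6 members past the filter were higher in NormMg-HFD than in NormMg-LFD mice, against a background of 24.6% of tested genes called higher and 12.8% called lower, and their median log2 fold change was 1.196, against 0.07 over all genes tested. In all 6 every NormMg-HFD mouse lay above every NormMg-LFD mouse, which held for 21.5% of genes tested.

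H2-Aa and H2-Ab1 encode the alpha and beta chains of the I-A molecule. H2-Aa stood at 284, 239.9, 305 and 252 FPKM in the NormMg-LFD mice and at 585, 607, 711, 587 and 592 FPKM in the NormMg-HFD mice. The means were 270.1 ± 29.7 (SD, n = 4) and 616 ± 53.5 (SD, n = 5). The groups lay far apart and did not overlap. Fat raised H2-Aa by 1.19 ± 0.17 on the log2 scale (SE, limma, adjusted p = 2.40e-05). H2-Ab1 ranged from 155 to 199 FPKM in NormMg-LFD and from 390.2 to 489 FPKM in NormMg-HFD mice, a rise of 1.22 ± 0.18 (SE, adjusted p = 3.52e-05). H2-Eb1 encodes the beta chain of the I-E molecule, whose alpha chain gene is defective in the b haplotype of C57BL/6 mice. Its transcript ranged from 167 to 228 FPKM in NormMg-LFD and from 418 to 549 FPKM in NormMg-HFD mice, and rose by 1.202 ± 0.19 (SE, adjusted p = 6.39e-05).

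Cd74, the invariant chain, was at 636, 489.6, 681 and 544 FPKM in the NormMg-LFD mice and at 1247, 1260.3, 1559.7, 1281 and 1245 FPKM in the NormMg-HFD mice. All NormMg-HFD mice but replicate 3 lay within a narrow band of 1245 to 1281 FPKM. The mean rose from 588 ± 86.5 (SD, n = 4) to 1318 ± 136 (SD, n = 5), which is 2.24-fold, or a log2 rise of 1.17 ± 0.17 (SE, adjusted p = 3.40e-05).

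The chains of DM moved unequally. H2-DMa was at 26.4, 22.6, 28.3 and 21.3 FPKM in the NormMg-LFD mice and at 54.6, 42.8, 55.1, 40.9 and 54.6 FPKM in the NormMg-HFD mice, a log2 rise of 0.98 ± 0.17 (SE, adjusted p = 1.29e-04). H2-DMb1 was at 15.0, 13.8, 20.1 and 14.7 FPKM in the NormMg-LFD mice and at 63.7, 70.7, 102, 86.5 and 75.1 FPKM in the NormMg-HFD mice. It rose by 2.25 ± 0.23 (SE, adjusted p = 1.36e-06), the largest change among the members, and its mean was 5.01-fold higher. H2-DMb2, the neighbouring DM beta gene, was at 5.07, 5.36, 12.2 and 8.29 FPKM in the NormMg-LFD mice and at 5.75, 7.36, 5.35, 5.45 and 5.64 FPKM in the NormMg-HFD mice. The NormMg-HFD values fall inside the NormMg-LFD range, and the log2 fold change in the fit of all genes was -0.27 (95% interval -0.99 to 0.45, adjusted p = 0.678).

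The values of the DM beta genes are uncertain against each other. Their longest transcripts are identical at 94.59% of 1219 aligned bases, and 27.2% of the 50-base windows of H2-DMb1 and 25.2% of those of H2-DMb2 also occur in the other gene, so that reads from these windows had to be divided between them by RSEM. A retained-intron transcript of 522 bases that GENCODE M21 places in H2-DMb1 was listed under H2-DMb2 in the deposited table. With the FPKM of both genes summed, an alternative chosen after the data were seen, the sum was 23.6 ± 5.98 (SD, n = 4) in NormMg-LFD and 85.5 ± 14.6 (SD, n = 5) in NormMg-HFD mice, and it rose by 1.83 ± 0.23 (SE, adjusted p = 5.05e-06). No 50-base window of H2-Aa, H2-Ab1, H2-Eb1, H2-DMa or Cd74 occurs in a transcript of another gene on either strand.

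Ciita was at 2.43, 3.09, 3.46 and 2.56 FPKM in the NormMg-LFD mice and at 8.32, 8.50, 8, 7.48 and 6.80 FPKM in the NormMg-HFD mice. These groups did not overlap, with means of 2.89 ± 0.478 (SD, n = 4) and 7.82 ± 0.689 (SD, n = 5). In the fit of all genes, where 9.72% were called higher, Ciita rose by 1.19 ± 0.21 on the log2(FPKM + 1) scale (SE, adjusted p = 6.50e-04), a scale that understates the change of low genes, since the ratio of the means was 2.71.

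Without NormMg-LFD replicate 3, the library with pancreatic transcripts, the 6 members past the filter kept a rise of 0.94 to 2.19, with adjusted p between 1.38e-05 and 8.07e-04, and Ciita rose by 1.21 (adjusted p = 0.00228). Over each of the 19 libraries left out in turn, these 7 genes passed the threshold in every fit.

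On the HFD, low Mg2+ lowered most of the same transcripts by a smaller step. Of the 6 members past the filter, 5 fell from NormMg-HFD to LowMg-HFD, against a background of 12.9% called lower and 5.58% called higher. The median log2 fold change of the 6 was -0.56, against -0.04 over all genes tested, and in all 6 every LowMg-HFD mouse lay below every NormMg-HFD mouse, which held for 9.56% of genes tested. The comparisons of fat on normal Mg2+ and of low Mg2+ on the HFD use the same 5 NormMg-HFD mice, so that a high value there raises both differences. With low Mg2+ in the HFD, the paper also reports a lower body weight and a smaller epididymal fat mass. Its authors call it hard to assign metabolic changes to the lost weight or to the Mg2+ shortage. The part of body weight in the falls seen here was not tested.

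The LowMg-HFD mice differed among themselves. H2-Aa was at 549, 523, 390.2, 284 and 409 FPKM in LowMg-HFD replicates 1 to 5. Replicates 1 and 2 thus lay just under the NormMg-HFD mice and replicate 4 lay inside the range of the LFD mice. The mean was 431 ± 107 (SD, n = 5), a fall of 0.55 ± 0.16 on the log2 scale (SE, adjusted p = 0.0241). H2-Ab1 ranged from 187.7 to 384 FPKM and H2-Eb1 from 213 to 410.4 FPKM, with log2 fold changes of -0.52 ± 0.17 (SE, adjusted p = 0.0424) and -0.57 ± 0.18 (SE, adjusted p = 0.0344).

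Cd74 was at 1081, 1025, 848, 609.9 and 836 FPKM in the LowMg-HFD mice. All 5 lay under the lowest NormMg-HFD mouse, with replicate 4 again the lowest. The mean was 879.9 ± 185 (SD, n = 5), with a log2 difference of -0.61 ± 0.16 (SE, adjusted p = 0.0152).

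H2-DMb1 was at 56.5, 59.4, 22.7, 30.7 and 30.7 FPKM in the LowMg-HFD mice, so that replicates 1 and 2 lay close under the NormMg-HFD mice and the other three much lower. The mean of 40.01 ± 16.8 (SD, n = 5) was 1.99-fold under that of NormMg-HFD mice, a log2 difference of -1.05 ± 0.21 (SE, adjusted p = 0.00352), and that of the summed DM beta genes was -0.93 ± 0.21 (SE, adjusted p = 0.00581). H2-DMa was at 35.3, 40.5, 36.3, 29.4 and 38.9 FPKM, so that replicate 2 lay just under the lowest NormMg-HFD mouse, at 40.9 FPKM, and replicate 4 well below it. Its log2 fold change of -0.45 (95% interval -0.77 to -0.12) missed the threshold (adjusted p = 0.0536), which it passed in 6 of 29 alternatives, among them the fit of these groups alone (adjusted p = 0.0252) and 5 of the 19 fits with a library left out (NormMg-HFD replicate 2 or 4, LowMg-HFD replicate 2, LowMg-LFD replicate 1 or 4, adjusted p = 0.0198 to 0.0498).

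H2-DMb2 was at 3.85, 4.53, 8.20, 8.01 and 3.92 FPKM in the LowMg-HFD mice, a spread that covers the whole NormMg-HFD group. Ciita was at 6.90, 5.74, 3.91, 3.23 and 5.79 FPKM, so that replicate 1 overlapped the NormMg-HFD mice. In the fit of all genes, where 3.85% were called lower, the log2 fold changes were -0.10 for H2-DMb2 (95% interval -0.78 to 0.58, adjusted p = 0.931) and -0.56 for Ciita (95% interval -0.98 to -0.15, adjusted p = 0.122).

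Without NormMg-LFD replicate 3 the same 5 members were called, with adjusted p up to 0.0478. Single mice of the compared groups decided several of these calls. Without NormMg-HFD replicate 3, the mouse with the highest values of all 4 abundant members, 1 of the 6 remained past the threshold, H2-DMb1 (adjusted p = 0.0148). The log2 fold changes of the lost calls were then -0.54 for Cd74 (adjusted p = 0.0506), -0.50 for H2-Aa, -0.51 for H2-Eb1 and -0.46 for H2-Ab1. Without LowMg-HFD replicate 4, H2-DMb1 (adjusted p = 0.00874) and Cd74 (adjusted p = 0.0408) remained, and the count was also 2 without LowMg-HFD replicate 3 or replicate 5. The count was 1 when all genes were tested and 3 under quantile normalization. H2-DMb1 was called lower in all 28 alternatives, with adjusted p from 8.81e-04 to 0.0176, while the adjusted p of H2-Ab1 lay between 0.0180 and 0.115 over 29.

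On low Mg2+, fat raised 6 of the 8 members. All 6 past the filter were higher in LowMg-HFD than in LowMg-LFD mice, against a background of 12.4% called higher, with log2 fold changes from 0.67 for Cd74 (adjusted p = 0.00963) to 1.21 for H2-DMb1 (adjusted p = 0.00147). In a fit of these groups alone H2-Eb1 and Cd74 missed the threshold (adjusted p = 0.0516 for both). In the LowMg-LFD mice H2-Aa was at 179.7, 300.3, 210.2, 297 and 263 FPKM, Cd74 at 365, 601, 497, 657 and 656 FPKM and H2-DMb1 at 11.6, 16.4, 16.9, 16.9 and 17.0 FPKM. Replicate 1 was the lowest in each. LowMg-HFD replicate 4, at 284 FPKM of H2-Aa and 609.9 FPKM of Cd74, lay within the LowMg-LFD range, whereas for H2-DMa and H2-DMb1 the groups did not overlap. Ciita was at 1.65, 3.11, 2.83, 2.90 and 5.01 FPKM in LowMg-LFD mice, and its log2 fold change of 0.59 did not pass in the fit of all genes (adjusted p = 0.115), where 3.09% were called higher. It passed without LowMg-HFD replicate 4 (0.71, adjusted p = 0.0415) and without LowMg-LFD replicate 5 (0.74, adjusted p = 0.0378), so that single mice decide this call. H2-DMb2 was at 2.00, 8.74, 9.77, 8.92 and 9.14 FPKM, with a log2 fold change of -0.31 (adjusted p = 0.685). Without LowMg-LFD replicate 1, the mouse at 2.00 FPKM, the change of H2-DMb2 was -0.66 (adjusted p = 0.199).

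On the LFD, low Mg2+ gave no call. None of the 6 members differed between LowMg-LFD and NormMg-LFD mice by limma, nor did any of the 8336 genes tested (0%), of which 547 had an unadjusted p under 0.05. The log2 fold changes lay between -0.37 for H2-DMa (95% interval -0.72 to -0.02, adjusted p = 0.753), the only member with an unadjusted p under 0.05, and -0.01 for H2-DMb1 (95% interval -0.48 to 0.46). For H2-Aa and Cd74 the intervals were -0.49 to 0.23 and -0.47 to 0.26. Without LowMg-LFD replicate 1 the difference of H2-DMa was -0.22. Without NormMg-LFD replicate 3 no member and no gene was called either, and the difference of Cd74 moved from -0.10 to -0.19.

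Whether the effect of low Mg2+ differed between the fat levels was tested by the interaction term, for which 1.25% of genes tested were called. None of the 6 members passed, and 2 of them, H2-DMb1 and Cd74, had an unadjusted p under 0.05, against 1698 of the 8336 genes tested. For H2-DMb1 the difference of the differences was -1.04 (95% interval -1.69 to -0.39, adjusted p = 0.0761), for Cd74 -0.50 (95% interval -1.003 to -0.00049, adjusted p = 0.245) and for H2-Aa -0.42 (95% interval -0.91 to 0.08, adjusted p = 0.335). The call of H2-DMb1 depended on the mice: its adjusted p lay between 0.0261, without LowMg-HFD replicate 2, and 0.190 over 27 alternatives. Without NormMg-LFD replicate 3 it was 0.138, and none of all genes tested was called for the interaction, against 104 with that library. A difference in the Mg2+ effect between LFD and HFD is thus not shown for any member by this fit.

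**Figure D2:**
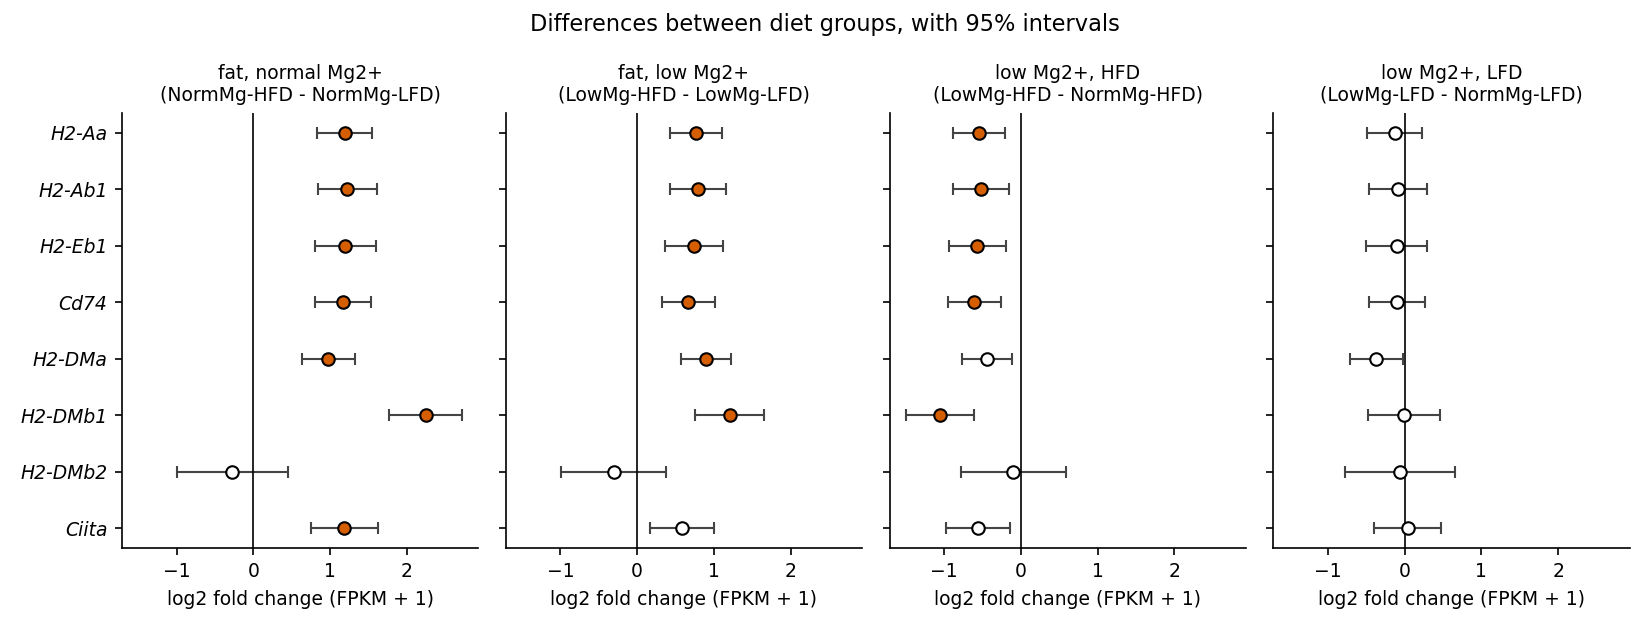
Log2 fold change of each member (horizontal axis, log2 scale of FPKM + 1) in 4 comparisons, as a point with its 95% interval; filled points have an adjusted p under 0.05. The points of the fat comparison on normal Mg2+ lie between 0.98 and 1.22 for 6 of the 8 members, with H2-DMb1 at 2.25 and H2-DMb2 at -0.27, and those of low Mg2+ on the HFD lie between -1.05 and -0.10.

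Within a mouse the conventional genes kept a nearly fixed proportion. The ratio of H2-Aa to H2-Ab1 FPKM was 1.35 to 1.64 over all 19 mice, with group means of 1.52, 1.48, 1.48 and 1.45 in NormMg-LFD, LowMg-LFD, NormMg-HFD and LowMg-HFD. The ratio of Cd74 to H2-Aa was 1.96 to 2.49, and that of H2-Eb1 to H2-Ab1 was 1.02 to 1.23. The ratio of H2-DMa to H2-Aa had group means of 0.0912, 0.0779, 0.0806 and 0.0866 in the same order, and ran from 0.0537 to 0.103 over all mice. That of H2-DMb1 to H2-DMa varied more between groups and was 0.645 ± 0.0669 (SD, n = 4) in NormMg-LFD, 0.844 ± 0.142 (SD, n = 5) in LowMg-LFD, 1.63 ± 0.376 (SD, n = 5) in NormMg-HFD and 1.11 ± 0.422 (SD, n = 5) in LowMg-HFD mice. H2-DMb1 was singled out for this ratio after its values were seen, so that no test is given.

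**Figure D3:**
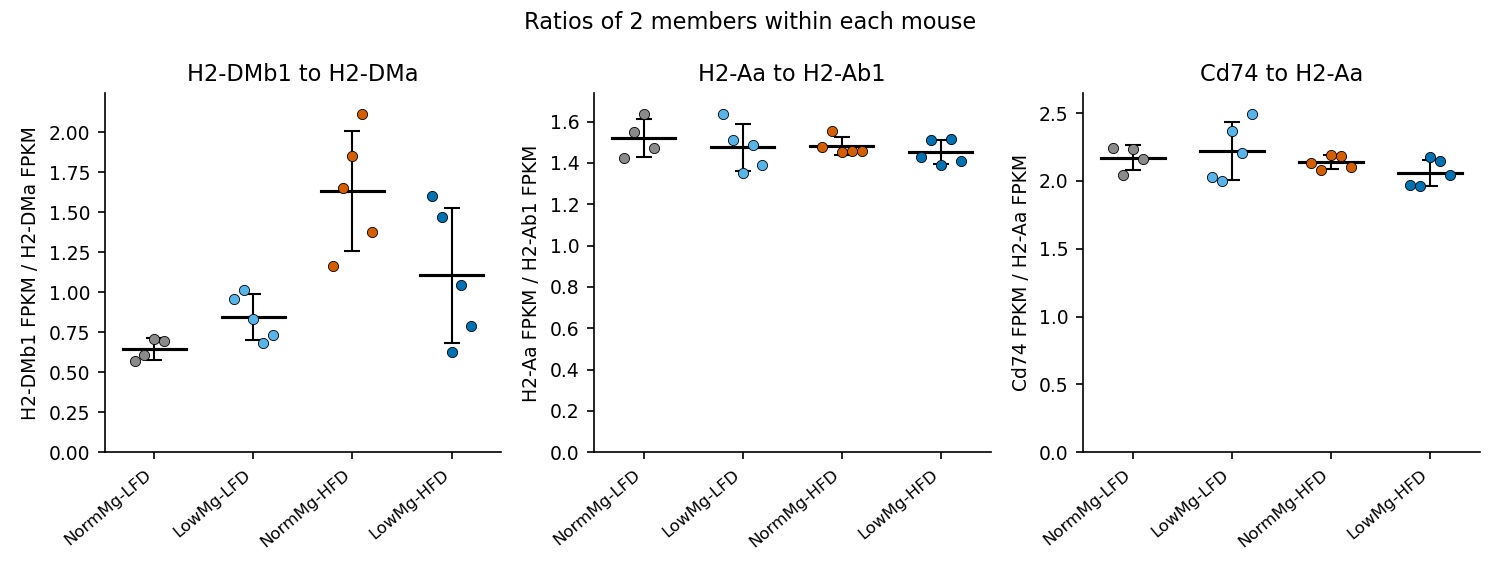
Ratio of the FPKM of 2 members within each mouse (vertical axes, linear, from 0), with 1 point per mouse, the group mean as a wide line and the SD as a bar. H2-DMb1 to H2-DMa runs from 0.569 to 0.709 in NormMg-LFD and from 1.17 to 2.11 in NormMg-HFD mice, while the other ratios stay within 1.35 to 1.64 and 1.96 to 2.49.

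Along the class II stretch of chromosome 17 the change was not shared by all neighbours. From H2-DMa to H2-Eb1, 14 genes of the annotation were in the table and 11 passed the filter. Between H2-DMb1 and H2-Ab1 lie Psmb9 and Psmb8, subunits of the immunoproteasome, and Tap1 and Tap2, which form the peptide transporter of class I presentation. On normal Mg2+ the log2 fold changes with fat were 0.19 for Psmb9 (adjusted p = 0.453), 0.18 for Tap1 (adjusted p = 0.501) and 0.03 for Tap2 (adjusted p = 0.871), whereas Psmb8 rose by 0.55 (adjusted p = 0.00551). Without NormMg-LFD replicate 3 Psmb8 rose by 0.52 (adjusted p = 0.0213), and Psmb9, Tap1 and Tap2 were at 0.29, 0.05 and 0.07, again not called. Brd2, at the H2-DMa end of the stretch, was at -0.11 (adjusted p = 0.5002). H2-Ob, the beta chain of the DM-like molecule DO, was at 0.70 in the fit of all genes (adjusted p = 0.0717).

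**Figure D4:**
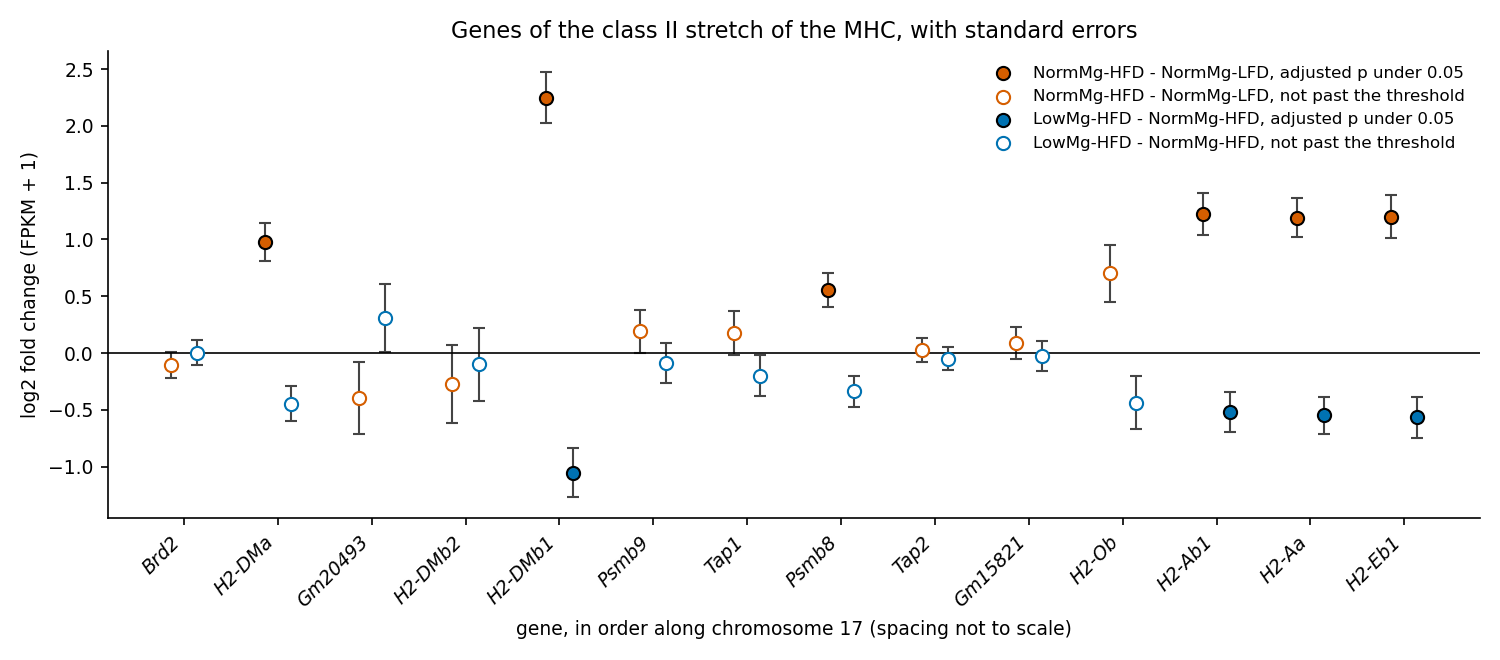
Log2 fold change (vertical axis, log2 scale of FPKM + 1, with SE) of the 14 genes of the class II stretch, in their order along chromosome 17, for fat on normal Mg2+ (orange) and low Mg2+ on the HFD (blue); filled points have an adjusted p under 0.05. With fat H2-DMa, H2-DMb1, H2-Ab1, H2-Aa and H2-Eb1 are filled, and so is Psmb8 at 0.55, while Psmb9, Tap1 and Tap2 lie at 0.03 to 0.19 with fat.

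The other genes of the class II pathway were read as a list of 27, of which 18 passed the filter. The list holds the DO chains, the endosomal proteases, the costimulators, the promoter-binding factors and the interferon gamma pathway. With fat on normal Mg2+, 10 of the 18 were higher and 0 lower, against 24.6% of genes tested called higher, with a median log2 fold change of 0.47 against 0.07 over all genes tested. With low Mg2+ on the HFD, 8 were lower and 0 higher, against 12.9% called lower, with a median of -0.29 against -0.04. With fat on low Mg2+, 7 were higher and 0 lower, against 12.4% called higher. Without NormMg-LFD replicate 3 these counts were 9, 8 and 6 of 18.

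Endosomal enzymes that cut the invariant chain and unfold antigen were among the genes called. Ctss, cathepsin S, was at 43.6 ± 9.69 FPKM (SD, n = 4) in NormMg-LFD, 468 ± 106 (SD, n = 5) in NormMg-HFD and 198 ± 125 (SD, n = 5) in LowMg-HFD mice. Its log2 fold changes were 3.39 with fat (adjusted p = 1.37e-06) and -1.44 with low Mg2+ on the HFD (adjusted p = 0.00530). Ifi30, a thiol reductase of the endosome, rose by 2.48 (adjusted p = 1.36e-06) and fell by 1.37 (adjusted p = 0.00178). Lgmn, the protease legumain, rose by 2.27 (adjusted p = 4.60e-06) and fell by 1.24 (adjusted p = 0.00406). Ctsb and Ctsl, further cathepsins, rose by 1.45 (adjusted p = 3.91e-06) and 1.29 (adjusted p = 1.93e-05) and fell by 0.81 (adjusted p = 0.00352) and 0.73 (adjusted p = 0.00695).

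Genes upstream of Ciita gave mixed results. Ifng, interferon gamma, which induces Ciita, was listed at 0 in some mice of every group and at most at 0.58 FPKM in any mouse. Ifngr2, a chain of its receptor, rose by 1.13 (adjusted p = 3.73e-04) and fell by 0.64 (adjusted p = 0.0342), and Jak1, a kinase of that receptor, rose by 0.46 (adjusted p = 5.56e-04) and fell by 0.26 (adjusted p = 0.0382). The other chain of the receptor, Ifngr1, was at 0.10 (adjusted p = 0.518) and -0.02 (adjusted p = 0.932), and its other kinase, Jak2, at 0.08 (adjusted p = 0.594) and 0.0027 (adjusted p = 0.990). Irf1, an interferon-induced transcription factor that acts on a Ciita promoter, had values of 0.10 (adjusted p = 0.589) and -0.00068 (adjusted p = 0.998). Among the factors on the X and Y boxes, Nfya, a subunit of the CCAAT-binding NF-Y, rose by 0.88 (adjusted p = 9.98e-04) and fell by 0.54 (adjusted p = 0.0402). Its partners Nfyb, at 0.15 (adjusted p = 0.566) and 0.03 (adjusted p = 0.915), and Nfyc, at -0.21 (adjusted p = 0.156) and -0.11 (adjusted p = 0.497), were not called, and Rfx5, a subunit of the X box factor, had values of 0.08 (adjusted p = 0.852) and -0.03 (adjusted p = 0.983) in the fit of all genes. Sppl2a, a protease that clears the membrane stub of the invariant chain, rose by 0.60 with fat (adjusted p = 0.00383) and was at -0.40 with low Mg2+ on the HFD (adjusted p = 0.0536).

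Ptprc and most macrophage markers moved with the members that were called, while the other marker lists were mixed or too low to pass the filter. Ptprc, the pan-leukocyte CD45, was at 9.06 to 11.8 FPKM in NormMg-LFD, 8.28 to 15.5 in LowMg-LFD, 33.9 to 52.6 in NormMg-HFD and 13.5 to 32.5 in LowMg-HFD mice. The summed level of the 11 macrophage markers was 751 to 860.2 FPKM in NormMg-LFD, 579 to 1140.2 in LowMg-LFD, 2389 to 3793 in NormMg-HFD and 855 to 2122 in LowMg-HFD mice, and 10 of the 11 rose with fat on normal Mg2+ and 10 fell with low Mg2+ on the HFD, against 24.6% and 12.9% of genes tested. Mertk was the exception, at -0.33 (adjusted p = 0.105) and 0.13 (adjusted p = 0.591). Both counts were also 10 without NormMg-LFD replicate 3. Fcgr1, which is in both counts, passed the filter only through NormMg-HFD mice, so that the filter favoured its rise and its fall. Its means were 2.90, 4.71, 18.3 and 6.24 FPKM in NormMg-LFD, LowMg-LFD, NormMg-HFD and LowMg-HFD mice. Of the 9 dendritic cell markers 3 passed the filter, each through mice on the HFD only, so that the filter favoured a rise with fat. Itgax and Irf8, which macrophages of fat tissue also express, rose and fell, while Batf3 was at 0.47 with fat (adjusted p = 0.128) and -0.24 with low Mg2+ on the HFD (adjusted p = 0.496). In the fit of all genes the other six did not move one way with fat: Flt3 rose by 0.51 (adjusted p = 0.0459), Zbtb46 fell by 0.35 (adjusted p = 0.0271), and Xcr1, at 0.22 (adjusted p = 0.376), Clec9a, at 0.58 (adjusted p = 0.134), Ccr7, at 0.56 (adjusted p = 0.0665), and Cd209a, at -0.49 (adjusted p = 0.383), were not called. With low Mg2+ on the HFD none of these was called, with Zbtb46 at 0.27 and Cd209a at 0.48. In NormMg-HFD mice Itgax, at a mean of 58.6 FPKM, and Irf8, at 37.3 FPKM, made up most of the sum over the markers. The summed level of the 9 was 32.3 to 42.9 FPKM in NormMg-LFD, 24.3 to 44.5 in LowMg-LFD, 97.2 to 137 in NormMg-HFD and 44.8 to 109 in LowMg-HFD mice. None of the 6 B cell and 6 T cell markers passed the filter. The B cell sum was 5.53 to 15.0, 5.09 to 7.82, 6.40 to 28.6 and 8.48 to 18.5 FPKM in these groups, and the T cell sum 4.78 to 9.03, 6.26 to 14.3, 3.91 to 26.5 and 7.26 to 16.3 FPKM, so that the T cell sums overlap between all groups. The B cell sums overlap too, except that every LowMg-HFD mouse lay above every LowMg-LFD mouse, a comparison in which the 6 members past the filter also rose. Among single B cell markers Cd22 was at 1.36 to 1.88 FPKM in NormMg-LFD and 2.90 to 6.97 in NormMg-HFD mice. It was at 0.54 to 1.95 FPKM in LowMg-LFD and 1.99 to 6.07 in LowMg-HFD mice. The ranges of the other B cell markers overlapped in both comparisons. Cd22 was picked after its values were seen, so that no test is given. No marker of these lists was at 0 in every mouse of a group. In bulk tissue a greater number of class II cells and more class II RNA per cell cannot be told apart, and the part of these cell types in the members' values was not tested.

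Relative to Ptprc in the same mouse, most members went the other way, which was not called with Csf1r as the reference. The difference in mean log2(FPKM + 1) between member and Ptprc was put to exact permutation tests, two-sided, with p adjusted over the 16 of them (8 members in 2 comparisons), and the smallest p they can give is 0.00794. Of the 16, 12 passed. From NormMg-LFD to NormMg-HFD the ratio of H2-Aa to Ptprc fell by 0.74, from 4.52 ± 0.07 (SD, n = 4) to 3.78 ± 0.21 (SD, n = 5), with all HFD mice below all LFD mice (exact p = 0.00794, adjusted 0.0231), and that of Cd74 fell by 0.76 (exact p = 0.00794, adjusted 0.0231). On the HFD, low Mg2+ raised the ratio of H2-Aa to Ptprc by 0.46 (exact p = 0.0159, adjusted 0.0231) and that of Cd74 by 0.40 (exact p = 0.0159, adjusted 0.0231), with overlap between the groups. H2-DMb1 did not pass in either comparison, with differences of 0.32 with fat (exact p = 0.127, adjusted 0.135) and -0.04 with low Mg2+ (exact p = 0.825, adjusted 0.825).

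With the macrophage receptor gene Csf1r in place of Ptprc, 0 of the 16 tests passed after adjustment. With fat the ratios of H2-Aa, H2-Ab1, H2-Eb1, Cd74 and Ciita to Csf1r then differed by -0.11 to -0.06, and that of H2-DMb1 by 0.97 (exact p = 0.0159, adjusted 0.0847), with every HFD mouse above every LFD mouse. The log2(FPKM + 1) scale understates the rise of Ciita, a low gene, so that the sign of its small difference is not settled. With low Mg2+ on the HFD the same 5 genes differed by 0.17 to 0.26 and H2-DMb1 by -0.28 (exact p = 0.230, adjusted 0.307). For H2-Aa, H2-Ab1, H2-Eb1, Cd74 and Ciita both differences were smaller relative to Csf1r than to Ptprc, and for H2-DMb1 both were larger.

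**Figure D5:**
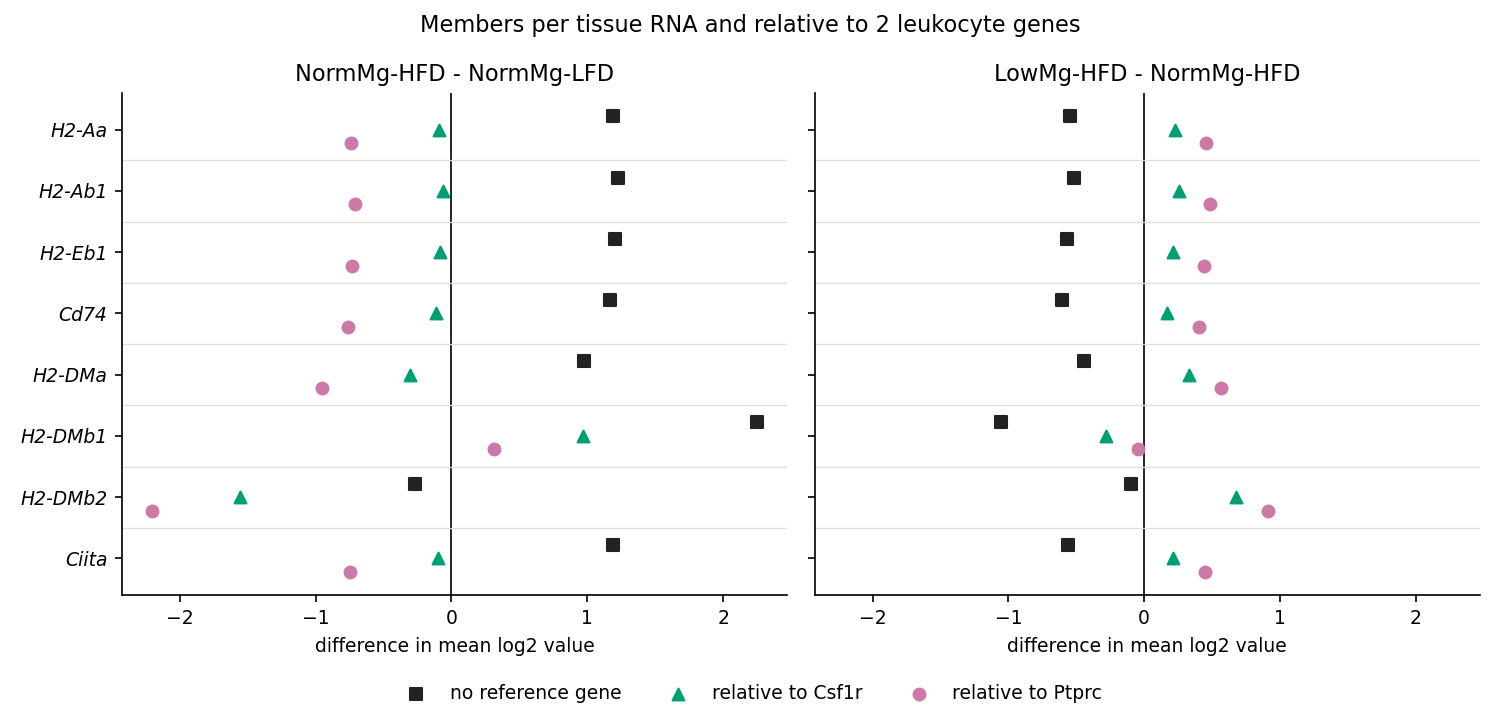
Difference between groups in mean log2 value (horizontal axis) of each member without a reference gene (squares), relative to Csf1r (triangles) and relative to Ptprc (circles). With fat on normal Mg2+ H2-Aa moves from 1.19 to -0.09 and -0.74, and H2-DMb1 from 2.25 to 0.97 and 0.32; H2-DMb2 lies below 0 on all 3 scales.

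The genes whose level over the 19 libraries was most like the mean of H2-Aa, H2-Ab1, H2-Eb1 and Cd74, by Pearson's r on the log2 scale among 8330 other genes, were Selplg (r = 0.979), Nfam1 (0.979), Clec4b1 (0.978), Itgb2 (0.976), Lyz2 (0.9753), Tmsb4x (0.974), Prex1 (0.972) and Ptafr (0.972). Selplg encodes a selectin ligand, Itgb2 the shared chain of the leukocyte integrins, Lyz2 a lysozyme of myeloid cells and Ptafr the receptor for platelet-activating factor. With each library set against its own group mean, r was between 0.872 and 0.9002 for these 8, against 0.834 for Ptprc and 0.871 for Csf1r. The 8 were picked by an r over the same libraries, so that their lead over Ptprc and Csf1r is partly set by that choice. Among the members themselves the same r within groups was 0.704 for H2-DMb1, 0.658 for H2-DMa, 0.740 for Ciita and 0.217 for H2-DMb2. These correlations describe libraries that share the diet groups and each library's own depth and cell makeup.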

How the data were processed

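Epididymal fat RNA of 19 mice, 1 library each, was read as single-end reads of 50 bp. The deposited gene values are FPKM, which the authors estimated with RSEM 1.2.31 on GRCm38 after alignment with HISAT/Bowtie2, and which scale each library to its own total. A deposited table gave read totals and mapped shares as percent per library. Of 24238 genes listed, 1 was left out for an unreadable cell, 12 broken lines were dropped and 26 symbols turned into dates were restored. Groups followed the sample labels; each mouse counted as 1 replicate.

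log2(FPKM + 1) was fitted with limma 3.58.1 (intensity trend, R 4.3.3), as described in the text, with 4 group means, and tested on simulated data. Ratios to Ptprc or Csf1r used exact two-sided permutation tests (scipy 1.17.1). Fold changes on this scale understate low genes. The depth, 12986441 to 13027028 reads, limits Ciita, H2-DMb2 and the lymphocyte markers, and no counting interval can be given from FPKM.

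Alternatives were other pseudocounts, filters, scalings, a replicate block, fits of the compared groups alone and each library left out. Named were the 8 members, 2 lists of pathway genes past the threshold with 4 regulators of Ciita (1 gene is not reported here), the 8 genes most alike, and cell type markers. The members and lists were chosen with earlier results of these data known.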

Additional observations from a re-analysis of the deposited data

Results flagged for a closer look

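In each of the 8 members and 4 groups, 32 sets of values in all, the highest and the lowest mouse were compared with the others by Dixon's gap ratio. In these sets 6 values lay far from the rest. Chance alone gives about 1 in 20, but the sets are not independent, since several members vary together within groups. The count of 6 is therefore no measure of an excess over chance. NormMg-HFD replicate 3 was far above the other mice of its group in H2-Aa, at 710.97 FPKM against 585 to 607, in H2-Ab1, at 489.23 FPKM against 390.2 to 406, and in Cd74, at 1559.72 FPKM against 1245 to 1281. LowMg-LFD replicate 1 was far below its group in H2-DMb1, at 11.62 FPKM against 16.4 to 17.0, and in H2-DMb2, at 2 FPKM against 8.74 to 9.77. NormMg-HFD replicate 2 was high in H2-DMb2, at 7.36 FPKM against 5.35 to 5.75. The cause of these values was not tested.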

How the results depend on the processing

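The count of members called higher with fat was 6 on normal and 6 on low Mg2+ with each library left out, and the count called with low Mg2+ on the LFD was 0. The count called lower with low Mg2+ on the HFD, 5 in the text, was 1 with no filter, 3 under quantile normalization, and 1 to 6 with each library left out: 1 without NormMg-HFD replicate 3, and 2 without LowMg-HFD replicate 3, 4 or 5. The interaction, with 0 members called, gave 1 under quantile normalization (H2-DMb1, adjusted p = 0.0475) and 0 to 1 with each library left out, with 1 without LowMg-HFD replicate 1 or 2. Of the ratios to Ptprc, 12 passed in the text, 0 with Csf1r as the reference gene, and 9 to 14 with each library left out. With the compared groups alone, fat on low Mg2+ lost H2-Eb1 and Cd74 (adjusted p = 0.0516 for both) and low Mg2+ on the HFD gained H2-DMa (adjusted p = 0.0252). The causes were not tested.

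Directions turned only in differences that were not called. With low Mg2+ on the LFD, H2-DMb1 was at 0.0541 under median centring and 0.0549 under quantile normalization, and at -0.0714 to 0.0996 with each library left out. H2-DMb2 was at 0.157, 0.0417 and -0.212 to 0.289. The same ranges were -0.15 to 0.0622 for H2-Ab1, -0.19 to 0.0418 for H2-Eb1, -0.19 to 0.0393 for Cd74 and -0.11 to 0.18 for Ciita. H2-DMb2 ranged from -0.23 to 0.0036 with low Mg2+ on the HFD and from -0.39 to 0.11 in the interaction, and H2-DMa from -0.22 to 0.0205 in the interaction.

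Replicate numbers are shared by the groups, but same-numbered mice as a set did not deviate together. The correlation of deviations had a median of 0.0032 over 27 pairs, with 5 over 0.1, and -0.0018 over 108 other pairs, with 18 over 0.1. NormMg-LFD replicate 4 reached 0.339 with LowMg-LFD replicate 4 and 0.258 with LowMg-HFD replicate 4, above the highest of the other pairs, at 0.201. With the replicate block, low Mg2+ on the HFD called 4 members (H2-Ab1 adjusted p = 0.0638), the fat comparisons 6 and 6, the interaction 0 of all genes, and H2-DMb2 with low Mg2+ on the LFD was at 0.0911.

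Over all genes, 1542 were called with low Mg2+ on the HFD and 921 without NormMg-HFD replicate 3. With fat on low Mg2+, 1329 were called, 665 with the compared groups alone, and 800, 834 and 866 without LowMg-HFD replicate 2, LowMg-LFD replicate 1 and LowMg-HFD replicate 1. The interaction called 104, with 0 to 347 over the other settings and 0 to 482 with each library left out. The share of called genes that were higher was 30.2% with low Mg2+ on the HFD, 43.3% under median centring and 47.2% under quantile normalization, 65.8%, 50.1% and 46.9% with fat on normal Mg2+, and 78.0%, 52.8% and 50.9% with fat on low Mg2+, where these scalings moved the median gene by -0.11 and -0.12.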

Other observations

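Class I presentation shows peptides of the cell's own proteins. All 9 listed genes passed the filter, and with fat on normal Mg2+ 5 were higher (B2m, H2-D1, H2-K1, Psmb8 and Tapbp), against 24.6% of genes tested, with a median log2 fold change of 0.51. With low Mg2+ on the HFD 1 was lower, H2-K1 (-0.45, limma adjusted p = 0.0395), with a median of -0.22 over the 9, and with fat on low Mg2+ 1 was higher, Tapbp (0.41). These shares of 1 in 9 are near the backgrounds of 12.9% and 12.4%. The 3 counts were the same without NormMg-LFD replicate 3.

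Of the 6 adipocyte markers, Adipoq, Plin1 and Lipe were lower with fat on normal Mg2+ and higher with low Mg2+ on the HFD, against 12.8% of genes tested called lower and 5.58% called higher, and Lep was higher with fat on either level of Mg2+. Cidec and Fabp4 were not called by limma, at 0.03 and 0.04 with fat on normal Mg2+ (adjusted p = 0.905 and 0.856) and at 0.34 and 0.26 with low Mg2+ on the HFD (adjusted p = 0.160 and 0.204). March1, a ligase that removes class II from the cell surface, passed in the fit of all genes with fat on normal Mg2+ (1.29) and with low Mg2+ on the HFD (-0.66, limma adjusted p = 0.0327), and so did Cd40, a costimulator, with fat on normal Mg2+ (1.12).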
